A study of Mus musculus with 24 samples.

Results

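Deletion of Mysm1 was compared with its heterozygous control in 3 neighbouring populations of mouse blood progenitors at once, as 1 knockout effect with cell type as an additive factor. The members were chosen by genotype and population from the sample labels: all 9 KO and all 9 Het libraries of the series, 18 of its 24 RNA sequencing libraries, with 3 libraries of each genotype in each population. The cells were bone marrow cells of the Lin- cKit+ Sca1+ CD150+ Flt3- phenotype, divided into HSC (CD34- CD48-), MPP1 (CD34+ CD48-) and MPP2 (CD34+ CD48+). KO libraries came from Mysm1 fl/fl CreERT2 mice and Het libraries from Mysm1 fl/+ CreERT2 mice, and both genotypes received 8 injections of tamoxifen at 0.15 mg/g within 16 days. The other 6 libraries, called Sham, came from Mysm1 fl mice given corn oil (n = 2 in each population), and their levels are set beside those of KO and Het without a test. All mice were C57BL/6, 8 to 12 weeks old, and cells of several mice, males and females, were pooled for each library. The labels do not name the promoter of the inducible Cre, and KO and Het share the tamoxifen and the recombinase.

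Mysm1 is a deubiquitinase that removes ubiquitin from histone H2A, a mark placed by Polycomb complexes, and it is known to be needed for the maintenance of blood stem cells. In its absence blood progenitors are known to activate p53, the transcription factor that halts the cell cycle and triggers cell death through targets such as Cdkn1a, Bax and Bbc3. Ribosomal proteins are the structural proteins of the ribosome, and a shortage of single ribosomal proteins is itself a known trigger of p53 in blood progenitors. The comparison asked which transcripts moved the same way in stem cells and in both progenitor populations.

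The 18 libraries held 18823971 to 53196624 counts and 15740 to 21150 detected genes, the fewest in HSC KO library 1 and the next fewest, 15932, in HSC Het library 2_3. Of 23364 genes, 20302 passed the filter on low counts. Levels are in CPM, counts scaled to a common library size after trimmed-mean normalization. Mysm1 stood at 74.4 to 125 CPM (median 101) in the 9 KO libraries, against 101 to 138 CPM (median 112) in the 9 Het libraries, a log2 change of -0.18 ± 0.09 (SE, adjusted p = 0.263, edgeR quasi-likelihood test); the count covers the whole gene, so it does not test the deleted part. None of the 8 listed sort genes passed the test (0 under an unadjusted 0.05, and 0 by DESeq2). They were Kit, Ly6a, Slamf1, Cd48, Cd34 and Flt3, with Ptprc and Il7r, which the phenotype above does not name. Kit stood at 512 to 845 CPM in KO, against 494 to 995 CPM in Het. With the limma-voom fit that treats same-numbered libraries of a genotype as related, Cd48 did pass (adjusted p = 0.00934). Cd48 was at most 2.80 CPM in HSC and MPP1 libraries and 13.9 to 59.0 CPM in MPP2, the CD48+ population. By edgeR 0 of 9 markers of B cells, 0 of 13 of T and NK cells and 0 of 13 of macrophages passed the test (0, 3 and 1 under an unadjusted p of 0.05; DESeq2 called 1 of T and NK cells). All 13 neutrophil markers had a value below 0, with a median log2 change of -1.83. Among all genes with a mean under 20 CPM 27.7% lay above 0, and the median was -0.38. By edgeR 0 of the 13 markers passed and 9 were under an unadjusted 0.05, while DESeq2 called 8. Their summed level was 67.8 to 253 CPM in KO, 162 to 759 CPM in Het and 122 to 1259 CPM in Sham libraries, and 0 to 5 of the 13 were at 0 in a KO library, against 0 or 1 in a Het library. The KO library numbered 1 had the lowest sum of its 3 in each population. S100a9, a calcium-binding protein of neutrophils, stood at 4.65 to 57.8 CPM in KO, against 8.84 to 244 CPM in Het. The part of such cells in the results below was not tested. In bulk samples fewer cells of a type and less RNA per cell cannot be told apart.

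Libraries of the same genotype carry the numbers 1, 2_3 and 4 in every population, and those that shared a number deviated together. For 9810 genes, the deviations of KO libraries from their group mean correlated between populations at 0.255 to 0.763 where the number was the same (median 0.627 over 9 pairs), and at a median of -0.356 over the 18 pairs with other numbers. For Het libraries the medians were 0.268 over 9 pairs and -0.135 over 18. These are correlations across genes, which are not independent replicates, and deviations from a mean of 3 must sum to 0. The labels do not say that HSC, MPP1 and MPP2 of a number were sorted from the same pool of mice. The counts of the main gene groups are therefore also given for fits that treat libraries of a genotype and number as related.

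**Figure D1:**
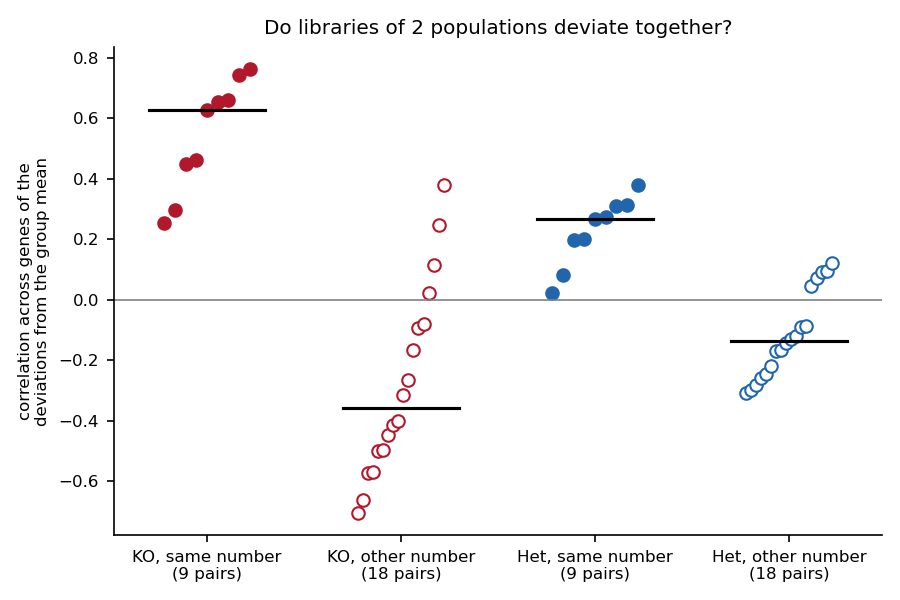
Each point is a pair of libraries of the same genotype from 2 populations, and the vertical axis gives the correlation, across 9810 genes, of their deviations from the group mean; black bars are medians. All 9 KO pairs with the same number lie above 0.2 (lowest 0.255), while the pairs with other numbers have a median of -0.356.

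With 1 knockout effect over the 3 populations, 696 genes rose (3.43% of the 20302 tested) and 234 fell (1.15%) in KO relative to Het at an adjusted p under 0.05 (edgeR quasi-likelihood test, Benjamini-Hochberg). The rises were small, with a median log2 change of 0.43, and the falls larger, with a median of -0.80. Rises came from well-expressed transcripts: 623 of them had a mean of 20 CPM or more, where 8.22% of 7579 genes rose and 1.53% fell. The split depended on the scaling. In the authors' deposited normalized values 418 genes rose and 395 fell, with DESeq2 959 rose and 594 fell, and with its size factors in edgeR 557 rose and 279 fell. Taking each population alone, 34 genes rose and 43 fell in HSC, 5 rose and 3 fell in MPP1, and 65 rose and 5 fell in MPP2.

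Of the 930 genes called, 925 had the same sign in all 3 populations (99.5%), against 9538 of all 20302 tested (47%). The additive fit favours such genes by its construction. The 5 with mixed signs included Sec14l1, 4930427A07Rik, Bcam and Mgmt, named after their values were seen. KO and Het libraries did not overlap within any of the 3 populations for 136 of the genes that rose (0.67% of genes tested) and 41 that fell (0.202%). Only Psrc1 passed the strictest reading, in which the largest of its 3 separate p-values was adjusted over all genes (1 of 20302, 0.00493%); 149 genes were under an unadjusted 0.05 in every population with 1 direction, and DESeq2 called 10 by this reading. Psrc1 and Rpl22l1 were the 2 genes past their own adjusted p in each population.

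Treating libraries of a genotype and number as a random block left 279 genes (163 rose, 116 fell), of which 257 were among the 930. This fit used limma-voom instead of edgeR. Without the block limma-voom called 1113 genes (745 rose, 368 fell), of which 878 were among the 930. Averaging log2 CPM over the 3 populations, so that 3 KO profiles met 3 Het profiles, left 79 (57 rose, 22 fell; 72 shared). Summing the counts instead left 26 (16 rose, 10 fell; 24 shared). Of single libraries, leaving out MPP1 KO 1 lowered the 930 to 448 and leaving out MPP1 Het 2_3 lowered it to 607. Without the 3 KO libraries numbered 1 the count was 120, and without those numbered 2_3 it was 2739.

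**Figure D2:**
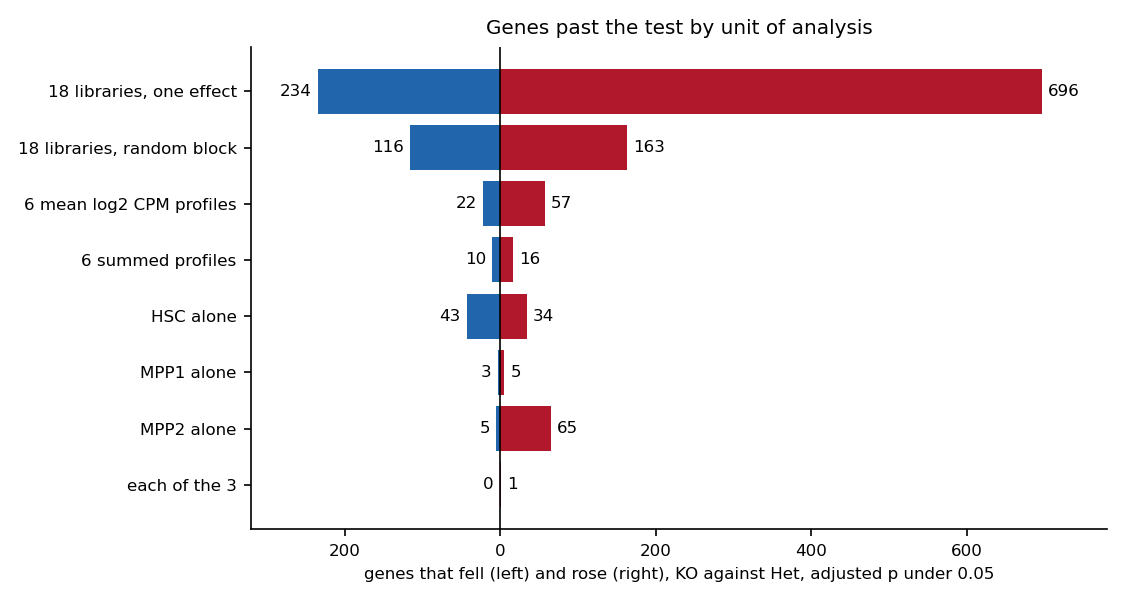
Bars give the number of genes that rose (right, red) and fell (left, blue) in KO against Het at an adjusted p under 0.05 for each way of using the libraries. The additive fit (edgeR) gave 696 rises and 234 falls, the random block (limma-voom) 163 and 116, and summed profiles (edgeR) 16 and 10. Without the block limma-voom gave 745 and 368, which are not drawn. In each of the 3 populations 1 gene passed.

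Of the 12 largest rises described below, 5 were targets of p53 (Cdkn1a, Phlda3, Eda2r, Psrc1 and Zmat3), and targets rose in all 3 groups of the p53 programme. Of 10 p53 targets listed under arrest 5 rose and 0 fell, with a median log2 change of 0.50. The median was -0.07 over all genes tested and 0.11 over genes of 20 CPM or more, of which 8.22% rose. The 5 include the spindle proteins Psrc1 and Ckap2 and the G2 protein Gtse1, and the part of cell division in this count was not tested. Of the 10, 3 passed with the random block and 2 with summed counts. Psrc1 (chr3:108186757-108191149, plus strand in mm9), which encodes a microtubule-binding protein of the mitotic spindle and is induced by p53, had 32.04, 26.3 and 29.5 CPM in HSC KO, against 8.65, 7.86 and 8.40 CPM in HSC Het. In the progenitors it had 47.8, 37.3 and 34.6 CPM in MPP1 KO, against 14.2, 9.86 and 13.8 CPM in MPP1 Het, and 94.7, 69.5 and 93 CPM in MPP2 KO, against 27.7, 19.8 and 26.8 CPM in MPP2 Het. Within every population each KO library was above each Het library, and Sham libraries ranged over 6.27 to 25.7 CPM. The log2 change was 1.76 ± 0.11 (SE, adjusted p = 9.65e-11), with 1.82 ± 0.21 in HSC, 1.66 ± 0.20 in MPP1 and 1.79 ± 0.20 in MPP2.

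Cdkn1a (chr17:29227924-29237667, plus strand) encodes p21, an inhibitor of cyclin-dependent kinases. Its level was 6.71, 3.94 and 8.19 CPM in HSC KO, against 1.65, 0 and 0.279 CPM in HSC Het; 10.1, 5.82 and 6.57 CPM in MPP1 KO, against 0.838, 1.42 and 1.51 CPM in MPP1 Het; and 23.5, 19.4 and 18.3 CPM in MPP2 KO, against 0.624, 1.25 and 0.694 CPM in MPP2 Het. The lowest KO library of any population exceeded the highest Het library, and the MPP2 KO libraries stood highest of all. The log2 change was 3.50 ± 0.51 (adjusted p = 0.000798; 0.000172 with summed counts). Gtse1, which binds p53 and restrains it in G2, rose by 1.17 (adjusted p = 0.00299), Btg2, an antiproliferative regulator of mRNA decay, by 0.76 and Ckap2, a spindle protein, by 0.66.

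Of 17 cell death genes of the p53 programme 9 rose and 0 fell, with a median of 0.61, against 8.22% rises among genes of 20 CPM or more. Of the 17, 5 passed with the random block and 3 with summed counts. Bax (chr7:52717065-52722268, minus strand), the effector that permeabilizes the mitochondrial outer membrane, had 27.1, 30.6 and 39.2 CPM in HSC KO, against 10.8, 18.5 and 19.7 CPM in HSC Het. It had 47.9, 34.1 and 42.2 CPM in MPP1 KO, against 22.5, 18.5 and 19.7 CPM in MPP1 Het, and 53.4, 44.4 and 53.4 CPM in MPP2 KO, against 25.8, 23.4 and 19.3 CPM in MPP2 Het. No Het library of any population reached the lowest KO library. The log2 change of 1.05 ± 0.12 (adjusted p = 7.83e-06) stood beside 0.98 ± 0.22 in HSC, 1.03 ± 0.22 in MPP1 and 1.14 ± 0.22 in MPP2.

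Eda2r, a receptor of the TNF family on the X chromosome (chrX:94529179-94572555, minus strand), stood at 13.1 to 41.98 CPM (median 23.2) in the 9 KO libraries, against 0.967 to 5.89 CPM (median 4.25) in the 9 Het libraries, again without overlap, and its log2 change was 2.67 ± 0.33 (adjusted p = 0.000218). Phlda3, a repressor of AKT signalling, stood at 5.04 to 19.5 CPM in KO, against 0 to 2.96 CPM in Het, a log2 change of 2.93 ± 0.47. Smaller rises were seen in Aen, a nuclease of the apoptotic response (0.67, adjusted p = 0.000754), Ei24, a membrane protein of the endoplasmic reticulum (0.61, adjusted p = 0.000798), Lrdd, the PIDDosome scaffold also called Pidd1 (0.66), Bbc3, the BH3-only protein PUMA (0.87), Apaf1, the core of the apoptosome (0.40), and Tap1, a peptide transporter that is also an interferon response gene (0.38).

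In the feedback and stress group 6 of 16 rose and 1 fell, against 8.22% and 1.53% of genes of 20 CPM or more. With the random block, and with summed counts, 2 rose and 0 fell. Ccng1 (chr11:40562054-40568813, minus strand), cyclin G1, had 178, 128 and 197 CPM in HSC KO, against 91.6, 98.1 and 117 CPM in HSC Het. Its levels in the progenitors were 199, 166 and 171 CPM in MPP1 KO, against 98.7, 98.1 and 84.3 CPM in MPP1 Het, and 380.3, 292 and 356 CPM in MPP2 KO, against 116, 99.2 and 135 CPM in MPP2 Het. The groups did not overlap within a population, and the change over all 3 was 1.07 ± 0.12 (adjusted p = 4.89e-06). Zmat3, an RNA-binding zinc finger protein, stood at 43.8 to 104 CPM (median 58.4) in the 9 KO libraries, against 12.1 to 28.02 CPM (median 22.3) in the 9 Het libraries, with 1.25 ± 0.24 in HSC, 1.20 ± 0.24 in MPP1 and 2.29 ± 0.25 in MPP2. Mdm2, the ubiquitin ligase that degrades p53, rose by 0.37 (adjusted p = 0.0166), Ercc5, a nuclease of nucleotide excision repair, by 0.51, Trp53inp1, a stress protein, by 0.83, and Gpx1, a glutathione peroxidase, by 0.36. Mdm2 changed by 0.185 in HSC, 0.334 in MPP1 and 0.581 in MPP2, and Ercc5 by 0.156, 0.588 and 0.769. Both overlapped in HSC. Neither passed with the random block (adjusted p = 0.0855 and 0.0932, limma-voom) or with summed counts (adjusted p = 0.493 and 0.435, edgeR). Ptpn14, a tyrosine phosphatase, fell by 0.88, and lost the call without MPP1 KO 1, MPP1 Het 2_3 or MPP2 KO 4.

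For feedback and cell death genes the median change was highest in MPP2, where it was 0.38 for feedback and 0.75 for death genes, against 0.29 and 0.49 in MPP1 and 0.10 and 0.39 in HSC. None of the 43 p53 targets passed the test for a difference between populations, and 9 were under an unadjusted p of 0.05, against 3.95% of all genes tested. The effect was highest in MPP2 for 12 of the 17 death genes and 10 of the 16 feedback genes, against 6347 of all 20302 tested. For arrest genes the medians ran the other way, at 0.73 in HSC, 0.64 in MPP1 and 0.41 in MPP2. Only 3 of the 10 arrest genes ran in that order themselves, against 20.3% of all tested. The effect was highest in HSC for 4 of them and highest in MPP2 for 2, Cdkn1a included (3.35 in HSC, 2.58 in MPP1 and 4.58 in MPP2).

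**Figure D3:**
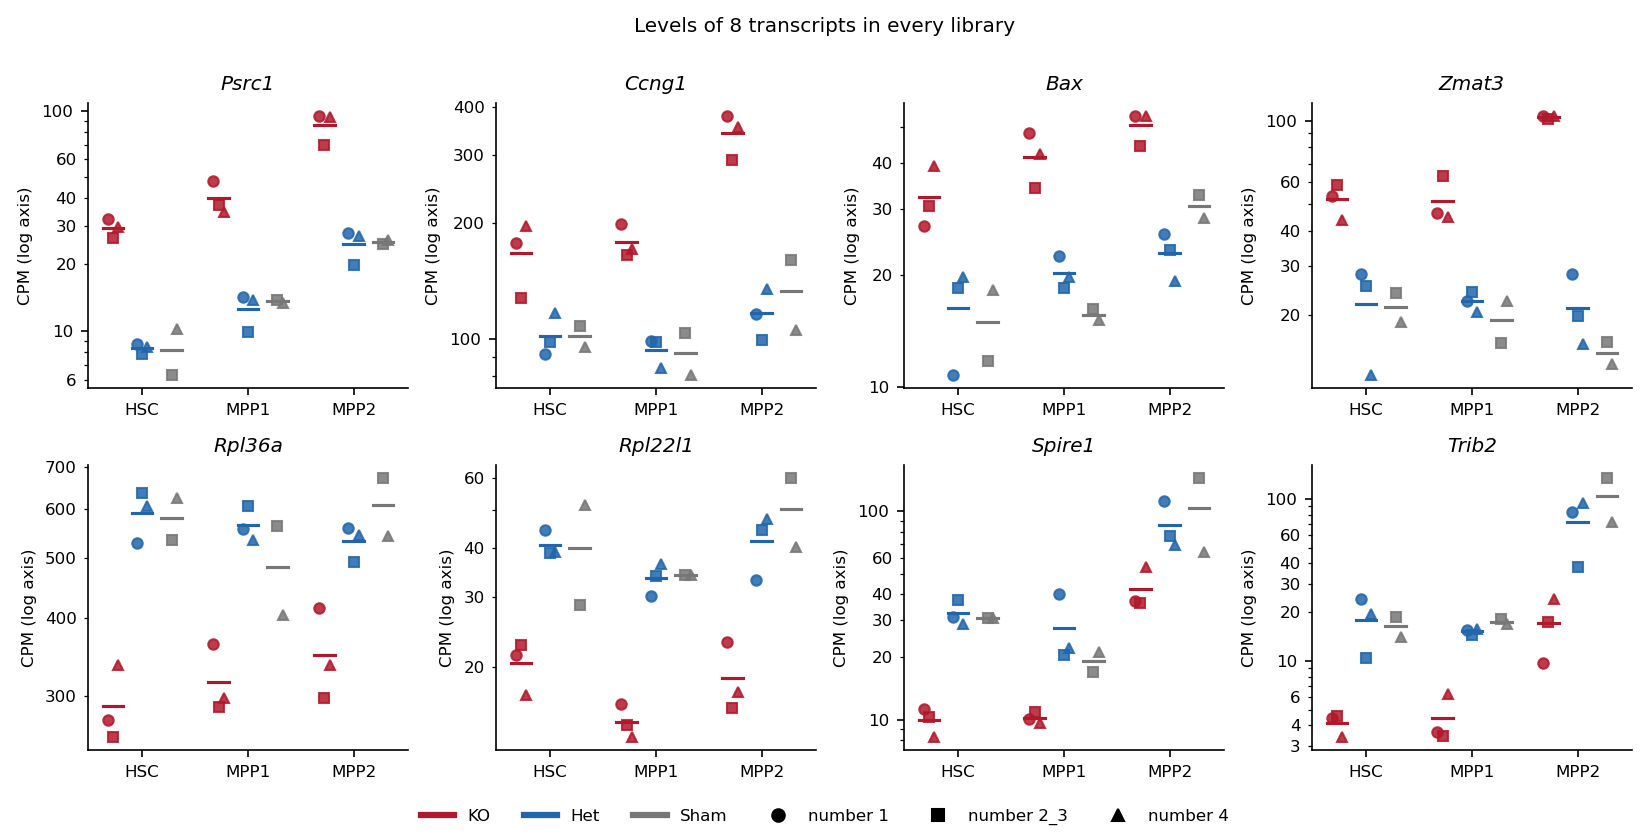
The vertical axis (log scale) gives CPM of 8 transcripts, with 1 point per library, coloured by genotype and shaped by library number, and bars at the group means. Psrc1, Ccng1, Bax and Zmat3 are higher in the 3 KO libraries of each population than in the Het libraries, and Rpl36a, Rpl22l1, Spire1 and Trib2 are lower.

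The windows of 250 bases before the start sites of 6 transcripts that moved together are shown, for p53 targets because 3 of 4 hold a decamer of the p53 binding element, and for Rpl36a and Rpl22l1 as genes that fell. They were read from the RefSeq table of GRCm38.p6, in which 89 of the 118 named genes had a window. Each window shown matched the gene's own chromosome in mm9 at exactly 1 place, which is given. Other chromosomes were not searched. Capitals mark the 10-letter p53 decamer, searched on both strands.
Psrc1, chr3:108186472-108186721, plus strand: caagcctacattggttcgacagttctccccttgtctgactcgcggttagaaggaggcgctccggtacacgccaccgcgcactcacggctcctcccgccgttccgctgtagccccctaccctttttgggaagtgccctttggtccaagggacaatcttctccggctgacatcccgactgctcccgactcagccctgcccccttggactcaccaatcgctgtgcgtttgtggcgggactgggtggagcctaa
Cdkn1a, chr17:29227674-29227923, plus strand: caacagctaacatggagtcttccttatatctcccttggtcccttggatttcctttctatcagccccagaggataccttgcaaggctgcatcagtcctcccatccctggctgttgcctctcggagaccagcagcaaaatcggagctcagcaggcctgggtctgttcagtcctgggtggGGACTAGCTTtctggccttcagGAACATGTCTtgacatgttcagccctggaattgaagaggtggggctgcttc
Ccng1, chr11:40568789-40569038, minus strand: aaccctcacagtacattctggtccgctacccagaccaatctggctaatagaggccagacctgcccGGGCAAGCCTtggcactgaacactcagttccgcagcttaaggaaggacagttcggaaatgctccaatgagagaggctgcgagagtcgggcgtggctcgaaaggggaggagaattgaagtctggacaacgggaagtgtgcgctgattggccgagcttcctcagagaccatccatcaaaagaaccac
Bax, chr7:52722269-52722518, minus strand: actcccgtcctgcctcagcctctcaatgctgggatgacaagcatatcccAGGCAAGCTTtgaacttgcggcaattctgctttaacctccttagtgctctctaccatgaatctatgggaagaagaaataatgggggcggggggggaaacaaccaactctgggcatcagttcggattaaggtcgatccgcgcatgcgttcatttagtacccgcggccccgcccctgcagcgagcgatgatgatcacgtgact
Rpl36a, chrX:131119943-131120192, plus strand: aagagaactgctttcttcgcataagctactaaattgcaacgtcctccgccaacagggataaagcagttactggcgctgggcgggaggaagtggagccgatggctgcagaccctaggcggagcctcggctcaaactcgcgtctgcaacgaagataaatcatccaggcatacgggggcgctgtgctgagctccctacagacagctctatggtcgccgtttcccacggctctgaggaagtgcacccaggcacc
Rpl22l1, chr3:28704180-28704429, plus strand: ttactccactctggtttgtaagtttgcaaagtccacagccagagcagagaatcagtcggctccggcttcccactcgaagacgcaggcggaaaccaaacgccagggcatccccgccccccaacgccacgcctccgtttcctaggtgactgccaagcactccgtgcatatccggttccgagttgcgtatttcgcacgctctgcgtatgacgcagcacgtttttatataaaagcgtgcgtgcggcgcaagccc

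In these windows Cdkn1a held decamers 73 and 51 bases before the start site, Ccng1 held 1 at 185 bases and Bax 1 at 201. A decamer was present in 4 of 10 windows of the feedback group, 3 of 10 of the arrest group and 2 of 13 of the death group, against 6.36% of the 14560 tested genes with a window and 7.18% of all 27018 windows. Among all genes that rose the share was 6.79% of 545, and among those that fell 7.56% of 172. No window of a tested gene held the whole element of 2 exact decamers with a spacer of at most 1 base. This search cannot show that the element is absent, since only 2 of all 27018 windows met it and no mismatch was allowed. In Cdkn1a the 10 letters directly after the decamer at 51 bases depart from the pattern in 1 letter. Bases outside these windows were not searched. A further motif, CCGGAAG, the core recognised by ETS factors, was present in 17.1% of the windows of genes that rose and 8.72% of those that fell, against 10% of tested genes; none of the 6 windows printed holds it. It was found in 8 of 33 windows of large and 10 of 24 of small ribosomal subunit proteins. CACGTG, the E-box bound by Myc, was in 11% of the windows of genes that rose and 3.49% of those that fell, against 7.36% of tested genes, and once in the window of Bax. A match describes the letters, not a site in use.

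Cytosolic ribosomal protein transcripts fell in part and none rose. Of 46 large subunit proteins 17 fell and 0 rose, with a median log2 change of -0.21, and of 32 small subunit proteins 11 fell and 0 rose, with a median of -0.06; among genes of 20 CPM or more 1.53% fell. Rpl36a (chrX:131120193-131122601, plus strand) had 275, 258 and 337 CPM in HSC KO, against 528, 634 and 606 CPM in HSC Het. It had 363, 289 and 298 CPM in MPP1 KO, against 557, 605 and 534 CPM in MPP1 Het, and 415, 298 and 336 CPM in MPP2 KO, against 559, 492 and 545 CPM in MPP2 Het. Every KO library was below every Het library, and Sham ranged over 405 to 672 CPM. The log2 change was -0.82 ± 0.09 (SE, adjusted p = 4.89e-06; 0.0441 with summed counts).

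Rpl37a (chr1:72757834-72760383, plus strand) stood at 164 to 224 CPM (median 183) in the 9 KO libraries, against 258 to 384 CPM (median 324) in the 9 Het libraries, a log2 change of -0.77 ± 0.09 (adjusted p = 7.83e-06), and Rpl13 at 566 to 734 CPM in KO, against 806 to 1379 CPM in Het, a change of -0.61; neither overlapped. Rpl23 stood at 1115 to 1493 CPM in KO, against 1425 to 2335 CPM in Het and overlapped in MPP2. The others of the large subunit that fell were Rpl35a, Rpl36, Rpl17, Rpl7, Rpl9, Rpl35, Rpl38, Rpl5, Rpl29, Rpl32, Rpl37, Rpl24 and Rpl10a, by 0.32 to 0.56. Rpl5, which with Rpl11 binds and inhibits Mdm2, fell by 0.41.

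In the small subunit Rps14 had the lowest adjusted p, at 276 to 452 CPM in KO, against 397 to 769 CPM in Het and a change of -0.69 ± 0.10 (adjusted p = 0.000212). Rps3 (628 to 877 CPM in KO, against 936 to 1465 CPM in Het) and Rps15 (249 to 362 CPM in KO, against 381 to 528 CPM in Het) did not overlap between genotypes in any population. Rps24 changed by -0.61, and Rps10, Rps18, Rps4x, Rps7 and Rps3a1 by -0.38 to -0.50. The median of the small subunit crossed to 0.03 without the HSC libraries, while the large subunit's stayed below 0 in every alternative (-0.39 to -0.11). With the random block 10 large and 8 small subunit genes fell, with summed counts 2 and 0, and without MPP1 2 and 0.

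Median changes of ribosomal proteins were lowest in HSC and highest in MPP2, but none of the 78 genes passed the test of a difference between populations, and 3 were under an unadjusted p of 0.05, against 3.95% of all genes tested. The large subunit medians were -0.41 in HSC, -0.20 in MPP1 and -0.06 in MPP2, and the small subunit medians -0.25 in HSC, -0.06 in MPP1 and 0.06 in MPP2. The effect ran in this order, lowest in HSC and highest in MPP2, in 43 of 46 large subunit genes (93.5%) and 30 of 32 small subunit genes (93.8%), against 19.6% of all genes tested and 23.9% of those with 20 CPM or more. For each gene the order rests on the same 18 libraries. The sources used here do not say how reads that match several places were counted, so values of ribosomal protein genes with pseudogene copies are uncertain.

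Among 7 tested paralogues of ribosomal proteins 1 fell and 1 rose, both without overlap within any population. Of genes of 20 CPM or more 1.53% fell and 8.22% rose. Of all genes tested 0.202% fell and 0.67% rose with no overlap in any population. Rpl22l1 (chr3:28704358-28706274, plus strand), the paralogue of Rpl22, had 21.5, 22.8 and 16.99 CPM in HSC KO, against 44.3, 38.9 and 39.05 CPM in HSC Het. It had 16.1, 14.2 and 13.3 CPM in MPP1 KO, against 30.2, 33.95 and 36.5 CPM in MPP1 Het, and 23.2, 15.8 and 17.2 CPM in MPP2 KO, against 33.2, 44.5 and 47.4 CPM in MPP2 Het. The highest KO library lay below the lowest Het library, with a log2 change of -1.12 ± 0.11 (adjusted p = 1.45e-06). Rpl22 itself stood at 770.2 to 1132 CPM in KO, against 722 to 1109 CPM in Het, a change of 0.05 (adjusted p = 0.803). Rps27l, a paralogue of Rps27 that p53 induces, stood at 19.4 to 77.2 CPM in KO, against 10.6 to 29.1 CPM in Het, a change of 1.02 ± 0.14 (adjusted p = 0.000101), without overlap within a population. Rpl36al, the paralogue of Rpl36a, stood at 194 to 335 CPM in KO, against 157 to 294 CPM in Het, a change of 0.25 (adjusted p = 0.0995).

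Of genes of the mitochondrial respiratory chain 30 rose, each by little; with the random block 3 rose and with summed counts 0. All 74 tested genes of oxidative phosphorylation had a log2 change above 0, with a median of 0.34, against 71.3% above 0 among genes of 20 CPM or more. Of the 74, 30 passed as higher and 0 as lower in KO, against 8.22% and 1.53% of genes of 20 CPM or more. Those that rose were 11 of 36 in complex I, 1 of 4 in complex II, 2 of 9 in complex III, 6 of 10 in complex IV and 10 of 15 in the ATP synthase. Atp5g3, a subunit of the ATP synthase ring, had 67.6, 52.8 and 57.7 CPM in HSC KO, against 32.8, 42.1 and 45.7 CPM in HSC Het; 93.9, 58.5 and 72.1 CPM in MPP1 KO, against 46.02, 43.2 and 52.7 CPM in MPP1 Het; and 93.4, 67.2 and 74.8 CPM in MPP2 KO, against 59.7, 49.1 and 54.4 CPM in MPP2 Het. It was higher in KO without overlap in each population, with a change of 0.58 ± 0.10 (adjusted p = 0.00134). Cox6c of cytochrome oxidase stood at 154 to 317 CPM in KO, against 106 to 218 CPM in Het (0.46, adjusted p = 0.00989), and Ndufc2 of complex I at 31.6 to 81.8 CPM in KO, against 19.6 to 62.8 CPM in Het (0.52, adjusted p = 0.00941).

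For oxidative phosphorylation 0 genes passed without MPP1, 1 without the 3 KO libraries numbered 1 and 10 without MPP1 KO 1 alone; the median kept its sign throughout, between 0.21 and 0.42.

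Of 76 mitochondrial ribosomal proteins 74 had a value above 0 (median 0.23), and 9 rose, led by Mrpl16 (0.57, adjusted p = 0.0116), Mrpl18 (0.48) and Mrpl39 (0.41). Among genes of 20 CPM or more 71.3% lay above 0 and 8.22% rose. None of the 76 passed with the random block or with summed counts, 3 passed without MPP1 KO 1, 5 without MPP1 Het 2_3, MPP1 Het 4 or MPP2 KO 1, and 14 or 15 without MPP1 Het 1 or HSC Het 4. In ribosome biogenesis 52 of 53 had a value above 0 (median 0.22) and 3 rose: Rrp12 and Dkc1, processing factors of ribosomal RNA, and the helicase Ddx21, by 0.33 to 0.34, no larger a share than the 8.22%. This count ran between 0 and 13 when single libraries were left out, and it was 0 with the random block and with summed counts. Of 44 translation factors Eif2s1, Eif5a, Eif4a1, Eif4h and Eif3b rose, by 0.30 to 0.43, a share near the 8.22%; 1 rose with the random block (Eif2s1) and 0 with summed counts. Eef1g, an elongation factor subunit, fell by 0.52 (adjusted p = 0.000716) and Gnb2l1, the ribosome-bound scaffold RACK1, by 0.44 (adjusted p = 0.00652); both also passed with the random block. The rises ran from 1 gene without MPP1 KO 1 to 11 without MPP1 Het 1.

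Of 40 S phase genes 14 rose and 0 fell in the additive fit, with a median of 0.48, against 8.22% rises among genes of 20 CPM or more. This count was 1 with the random block and 0 with summed counts. Mcm3, a subunit of the replicative helicase, stood at 373 to 765 CPM (median 550.5) in the 9 KO libraries, against 232 to 627 CPM (median 424) in the 9 Het libraries, a change of 0.49 ± 0.11 (adjusted p = 0.00941), and overlapped in MPP1. Mcm2, Mcm4, Mcm5 and Mcm6 of the same complex, Gins1, Prim1, Pcna, Rfc2, Rfc3, Rfc5, Chaf1a, Rrm1 and Slbp rose by 0.39 to 0.73. All 43 genes of G2 and mitosis had a value above 0, with a median of 0.69, against 71.3% above 0 among genes of 20 CPM or more. Of the 43, 3 passed, a share no larger than the 8.22%, and 0 with the random block or with summed counts. The 3 were Cenpm and Ndc80, kinetochore proteins, and Cdc20, the mitotic activator of the anaphase-promoting complex. Cdc20 stood at 27.4 to 127 CPM in KO, against 13.8 to 88.96 CPM in Het (change 0.77, adjusted p = 0.0438).

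Median cell cycle changes ran in the order opposite to that of the ribosomal proteins, and no gene of either list passed the test of a difference between populations (2 of S phase and 6 of G2 and mitosis under an unadjusted p of 0.05, against 3.95% of all genes tested). Median S phase changes were 0.75 in HSC, 0.46 in MPP1 and 0.20 in MPP2, and those of G2 and mitosis 1.31 in HSC, 0.50 in MPP1 and 0.26 in MPP2. This order, highest in HSC, held in 31 of 40 and 39 of 43 genes (77.5% and 90.7%), against 20.3% of all tested and 21.7% of genes of 20 CPM or more. Leaving out any of HSC KO 1, MPP1 KO 1, MPP2 KO 1, MPP2 KO 4, HSC Het 1 or 2_3, MPP1 Het 2_3 or 4, or MPP2 Het 1 or 2_3 left 3 to 8 S phase calls and 1 of G2 and mitosis. Without HSC Het 4 there were 5 S phase calls, without HSC KO 2_3 there was 1 of G2 and mitosis, and without MPP1 Het 1 there were 21 and 15. Ccnd1, cyclin D1 of G1 phase, rose more strongly. It had 138, 104 and 90.98 CPM in HSC KO, against 30.04, 66.95 and 50.6 CPM in HSC Het; 137, 112 and 98.5 CPM in MPP1 KO, against 49.5, 53.9 and 52.1 CPM in MPP1 Het; and 96.6, 79.7 and 56.5 CPM in MPP2 KO, against 18.2, 23.3 and 28.5 CPM in MPP2 Het. It did not overlap within a population, and its change of 1.36 ± 0.15 (adjusted p = 4.23e-05) passed in all 40 alternatives.

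The 12 largest rises and 12 largest falls were taken among the 132 and 36 genes past the test with no overlap in any population and 5 CPM or more on average in the genotype with the higher level. Gem, a small GTPase of the RGK family that is also an immediate early gene, led the rises. It had 241, 111 and 88.95 CPM in HSC KO, against 17.2, 21.1 and 13.9 CPM in HSC Het; 298, 138 and 113 CPM in MPP1 KO, against 8.21, 14.6 and 10.3 CPM in MPP1 Het; and 205, 89.98 and 37.9 CPM in MPP2 KO, against 4.03, 7.95 and 9.69 CPM in MPP2 Het. The KO library numbered 1 was the highest of its 3 in each population, and Sham stood at 6.28 to 14.98 CPM. The log2 change was 3.69 ± 0.38 (adjusted p = 0.000129; 0.219 with summed counts).

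Etv4, an ETS transcription factor downstream of MAP kinase, stood at 2.32 to 12.3 CPM in KO, against 0 to 1.81 CPM in Het, and Epha2, a receptor tyrosine kinase for ephrins, at 2.86 to 17.8 CPM in KO, against 0 to 2.75 CPM in Het; neither overlapped over the 18 libraries. Their changes were 3.26 ± 0.72 (adjusted p = 0.0166) and 2.76 ± 0.55 (adjusted p = 0.00928). Zfp365, a zinc finger protein, changed by 2.39, Lgals1, galectin-1, by 1.92 and Sh3bgrl2, a small thioredoxin-fold protein, by 1.83. Of the 12 rises, 11 passed with the random block and 9 with summed counts.

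Arhgef28, an exchange factor for RhoA, had the largest fall, at 1.05 to 6.61 CPM (median 3.56) in the 9 KO libraries, against 12.1 to 28.2 CPM (median 15.8) in the 9 Het libraries and a change of -2.36 ± 0.35 (adjusted p = 0.000897). Its KO library numbered 1 was the lowest of the 3 in each population, and with summed counts the adjusted p was 0.204. Trib2, a pseudokinase of the Tribbles family, had 4.42, 4.58 and 3.37 CPM in HSC KO, against 24.1, 10.5 and 19.4 CPM in HSC Het. In the progenitors it had 3.62, 3.45 and 6.28 CPM in MPP1 KO, against 15.6, 14.5 and 15.7 CPM in MPP1 Het, and 9.69, 17.5 and 24.2 CPM in MPP2 KO, against 83.3, 37.8 and 94.5 CPM in MPP2 Het. Its level was higher in MPP2 than in HSC in both genotypes, and the change was -2.13 ± 0.38 in HSC, -1.78 ± 0.38 in MPP1 and -2.07 ± 0.37 in MPP2 (together -1.99 ± 0.21, adjusted p = 5.97e-06).

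Spire1, an actin nucleator, stood at 8.21 to 54.2 CPM in KO, against 20.5 to 113 CPM in Het (change -1.38 ± 0.15, adjusted p = 3.3e-06), Pm20d2, a peptidase, at 4.12 to 7.44 CPM in KO, against 11.3 to 21.9 CPM in Het (change -1.27 ± 0.17, adjusted p = 0.000101) and Obsl1, a cytoskeletal adaptor, at 2.70 to 23.2 CPM in KO, against 5.46 to 50.2 CPM in Het (change -1.26 ± 0.18, adjusted p = 0.000137). With Rpl22l1 these 3 were the falls that also passed with summed counts. The falls of Sult1a1, a sulfotransferase (-1.95), Apob, apolipoprotein B (-1.81), and Ppm1l, a phosphatase (-0.999), passed with the random block. Cybb, the catalytic subunit of the phagocyte NADPH oxidase (1.03 to 6.75 CPM in KO, against 6.41 to 48.1 CPM in Het, change -2.05), Mtus1, a microtubule-associated protein (-1.78), and Met, the receptor of hepatocyte growth factor (-1.06), did not. Cybb is expressed in neutrophils, whose 13 markers summed to 67.8 to 253 CPM in the KO libraries, against 162 to 759 CPM in the Het libraries, and their part in its value, or in that of Cebpe below, was not tested.

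**Figure D4:**
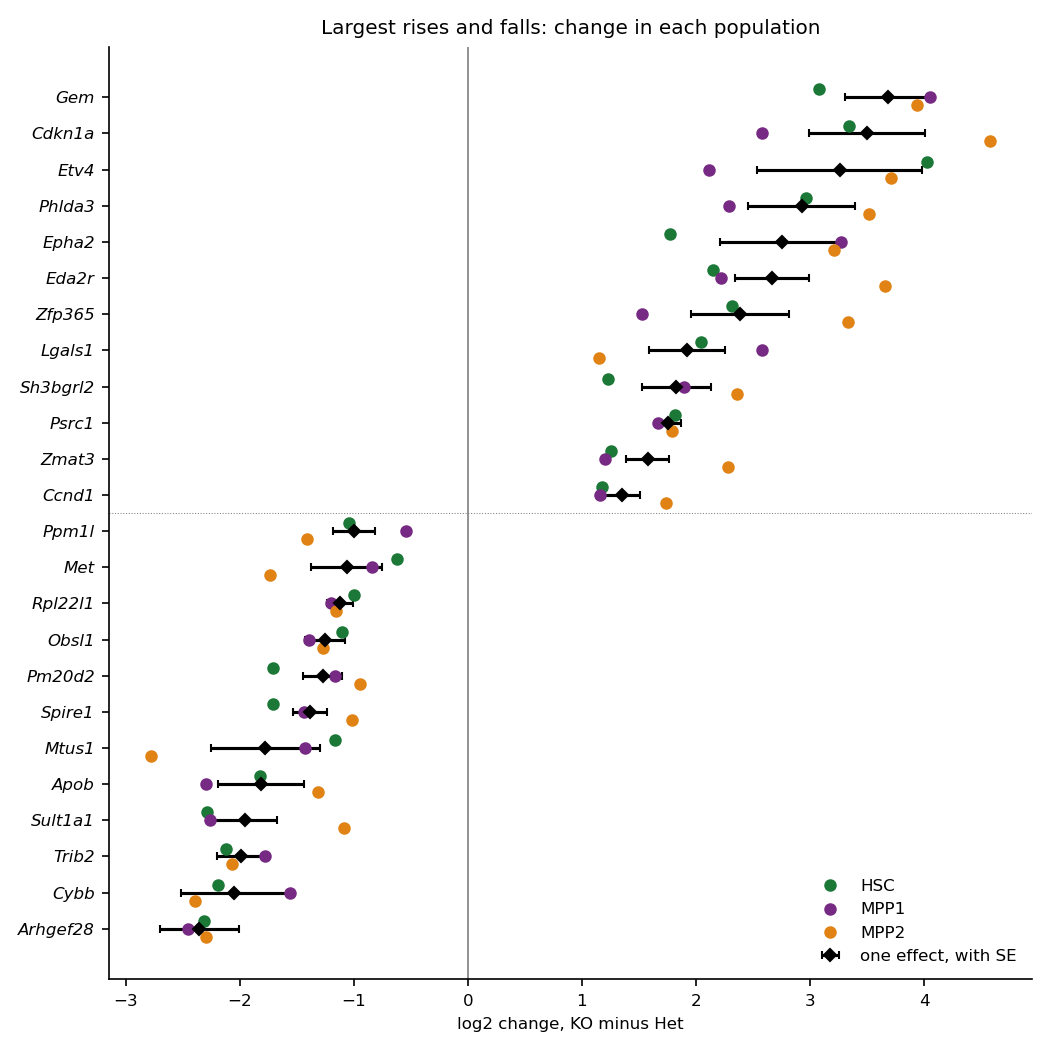
The horizontal axis gives the log2 change, KO minus Het, of the 12 largest rises and 12 largest falls; coloured points are the separate populations and black diamonds the effect over all 3 with its SE. The genes were chosen to have 1 sign in the 3 populations; the overall effects run from Gem (3.69) to Arhgef28 (-2.36).

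Of 40 adhesion and cytoskeleton genes 14 rose and 0 fell, with a median of 0.36, against 8.22% rises among genes of 20 CPM or more. The count was 8 with the random block and 2 with summed counts. Selp, P-selectin, had 79.5, 74.95 and 83.8 CPM in HSC KO, against 41.5, 42.7 and 27.3 CPM in HSC Het; 57.6, 72.2 and 93.05 CPM in MPP1 KO, against 50.99, 35.5 and 34.3 CPM in MPP1 Het; and 52.3, 49.96 and 54.2 CPM in MPP2 KO, against 31.5, 21.2 and 35.4 CPM in MPP2 Het. The groups did not overlap within a population, and its change of 0.94 ± 0.12 (adjusted p = 4.23e-05) passed in all 40 alternatives. Itgb2, the CD18 integrin chain, changed by 0.78 ± 0.11 (adjusted p = 0.000101), the intermediate filament Vim by 0.65 and the lamin Lmna by 0.89, each without overlap within a population. Actb, Actg1, Anxa2, Tagln2, Tpm1, Tpm4, Tln1 and Itgal were among the others that rose.

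In the lists that follow the count that rose is to be read against 8.22% of genes of 20 CPM or more, or 3.43% of all genes tested. The count that fell is to be read against 1.53% of genes of 20 CPM or more, or 1.15% of all genes tested. Of 10 MHC class II genes 4 rose: H2-Ab1 (38.4 to 119 CPM in KO, against 20.2 to 84.5 CPM in Het, change 0.81, adjusted p = 0.00652), H2-Eb1, H2-DMa and H2-Aa; 2 passed with the random block and 0 with summed counts. Among 44 interferon response genes 4 rose, including Psmb9, Tap1 and Igtp by 0.38 to 0.47, and Ifi44 fell by 0.66, and the median was 0.02. The share that rose was near that of genes of 20 CPM or more, and with the random block 1 rose and 1 fell, with summed counts 0, and without HSC KO 2_3 or HSC Het 4 8 rose. Of 40 immediate early and dissociation stress genes Gem, Ier5, Hsp90aa1 and Hspa8 rose, again near that share, and the median was -0.02; 3 passed with the random block (not Hspa8), 0 with summed counts and 2 without MPP1 KO 1. Ier5 stood at 36.8 to 55.3 CPM in KO, against 17.8 to 34.02 CPM in Het, without overlap (change 0.90 ± 0.13, adjusted p = 0.000148). Of 20 genes of MAP kinase feedback Etv4, Etv5 and Dusp6, the phosphatase of ERK, rose; 1 passed with the random block (Dusp6), 0 with summed counts and 5 without HSC Het 4. Mtf2, a Polycomb accessory protein, and Rbbp4, a histone chaperone, were the 2 of 39 Polycomb and histone H2A deubiquitination genes that rose, by 0.38 and 0.34, a share no larger than that of genes of 20 CPM or more; 0 passed with the random block or with summed counts, and 1 passed when any of HSC KO 1, MPP1 KO 1, MPP1 Het 2_3, MPP1 Het 4 or MPP2 KO 1 was left out.

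Few stem cell and lineage genes passed the test. Of 48 stem cell identity and quiescence genes 3 fell and 0 rose, against 1.53% falls among genes of 20 CPM or more and 1.15% of all tested. The median of the list was 0.02, and Trib2 and Sult1a1 were among those that fell. With the random block 1 rose and 4 fell, and with summed counts 0. Without MPP2 KO 2_3, MPP2 KO 4, MPP2 Het 1 or MPP2 Het 2_3, 5 fell. The effect was lowest in HSC and highest in MPP2, in order, for 29 of 48 genes (60.4%), against 19.6% of all genes tested. For a difference between populations 15 were under an unadjusted p of 0.05, against 3.95% of all genes tested, and 0 passed after adjustment. Of 25 megakaryocyte and platelet genes Selp and Thbs1, the matrix protein thrombospondin 1, rose (Selp is also in the adhesion list) and 1 gene fell, a share of rises near that of genes of 20 CPM or more. With the random block 1 rose (Selp, not Thbs1) and 1 fell, with summed counts 1 rose, and without MPP1 Het 1 or MPP2 Het 4 5 rose; the medians were 1.07 in HSC, 0.30 in MPP1 and -0.12 in MPP2.

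Among 18 erythroid genes 3 fell, including Art4 and Ermap, red cell membrane proteins, while 1.15% of all genes tested fell. Art4 changed by -1.77 in HSC and -1.73 in MPP1, but by -0.065 in MPP2. Ermap overlapped in HSC (6.04, 11.2 and 4.31 CPM in KO, against 72.4, 10.5 and 4.47 CPM in Het), but not in MPP1 or MPP2. None of the 18 passed with the random block or with summed counts. In addition 0 or 1 passed without any of 10 single libraries (HSC KO 1 or 4, MPP1 KO 1 or 2_3, MPP1 Het 1, 2_3 or 4, MPP2 KO 1, MPP2 Het 1 or 2_3). Cebpe, a granulocyte transcription factor, fell among 23 granulocyte and monocyte genes. The median of this list was -0.91, against -0.38 over all genes with a mean under 20 CPM. Cebpe lost the call with the random block and without any of 12 single libraries (each KO library except HSC KO 2_3 and MPP1 KO 2_3, all 3 MPP1 Het libraries, and MPP2 Het 1 and 2_3). Among 23 lymphoid genes 2 rose, including Il2rg, the common cytokine receptor chain (1 gene rose with the random block, 0 with summed counts and 1 without HSC KO 1, MPP1 KO 1, MPP1 Het 4 or MPP2 KO 1). Pdgfrb, a receptor of stromal cells, fell among 14 stroma and endothelium markers, at 2.24 to 9.44 CPM in KO, against 3.73 to 27.8 CPM in Het.

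**Figure D5:**
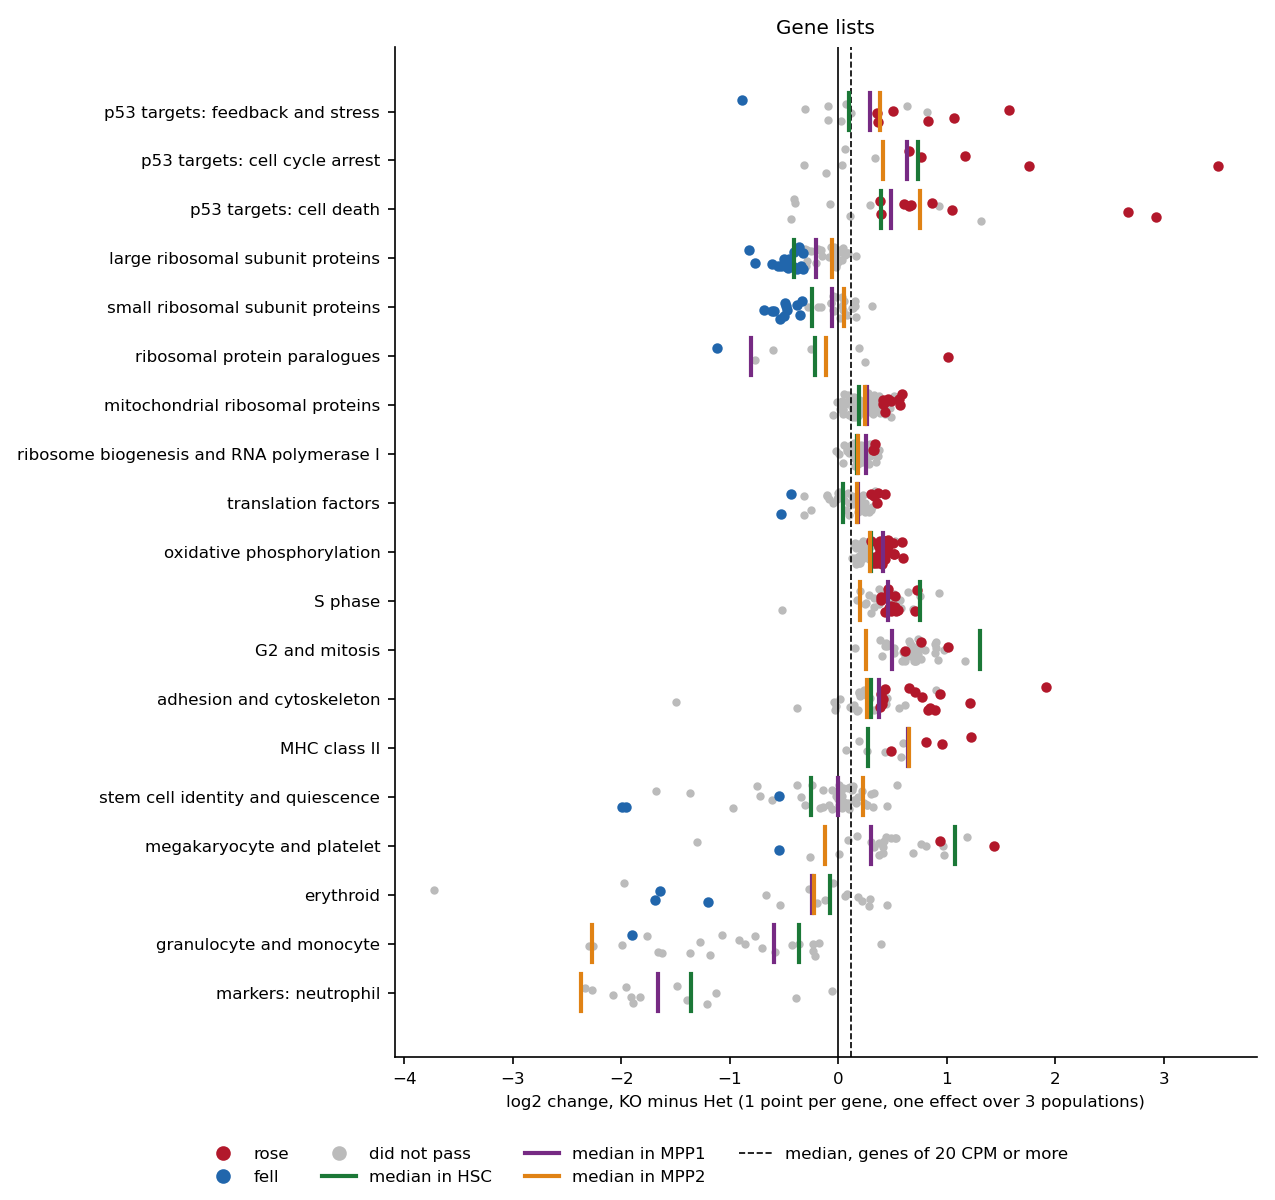
The horizontal axis gives the log2 change, KO minus Het, over the 3 populations, with 1 point per gene (red rose, blue fell, grey did not pass), coloured ticks at the list's median in each population and a dashed line at 0.11, the median of genes of 20 CPM or more. Ribosomal protein medians run from HSC (lowest) to MPP2, and S phase and G2 and mitosis medians run the other way. All 74 oxidative phosphorylation genes lie right of 0, as do 71.3% of genes of 20 CPM or more.

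The joint test of a difference between the 3 populations called 1 gene, Podxl (0.00493% of genes tested, with 802 under an unadjusted 0.05). Podxl encodes podocalyxin, a sialomucin of stem and endothelial cells. It had 18.2, 22.6 and 13.9 CPM in HSC KO, against 21.98, 23.8 and 31.1 CPM in HSC Het; 13.6, 27.5 and 8.35 CPM in MPP1 KO, against 17.6, 21.2 and 18.6 CPM in MPP1 Het; and 50.95, 42.1 and 59.3 CPM in MPP2 KO, against 6.83, 6.52 and 11.4 CPM in MPP2 Het. The KO libraries were above the Het libraries in MPP2 and overlapped them in the other populations. The Sham libraries of MPP2 had 52.8 and 11.1 CPM, so that 1 of them lay within the range of the KO libraries. The log2 changes were -0.49 ± 0.32 in HSC, -0.21 ± 0.32 in MPP1 and 2.62 ± 0.34 in MPP2 (interaction test, adjusted p = 0.0167). No gene passed without any of 10 single libraries: HSC KO 1 or 4, MPP2 KO 1, 2_3 or 4, HSC Het 2_3 or 4, MPP1 Het 2_3 or 4, or MPP2 Het 1. Without MPP2 Het 2_3 the 1 gene that passed was another, so Podxl lost the call in 11 of 18 such fits. Without HSC Het 1 there were 15, without MPP1 Het 1 there were 14 and without MPP1 KO 1 there were 2.

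The next 7 genes by interaction, none of them past that joint test, also had their highest change in MPP2. The difference of MPP2 from HSC alone, adjusted over all genes, did pass for Podxl and for these 7, which had been picked by interaction. Its adjusted p was 0.0131 for Podxl and Tjp1 and 0.0289 to 0.0318 for the others (edgeR quasi-likelihood test). Plk2, a polo-like kinase induced by p53, had -1.85 in HSC, -0.87 in MPP1 and 3.29 in MPP2. Its MPP2 levels were low, at 9.39, 4.17 and 4.33 CPM in KO, against 0.125, 0.77 and 0.926 CPM in Het. Tjp1, a tight junction scaffold, had -0.44 in HSC, 0.09 in MPP1 and 1.09 in MPP2; 1 Sham library of MPP2, at 89.7 CPM, stood above the MPP2 KO libraries (77.7, 68.3 and 74 CPM), and the other had 34.5 CPM. Gas6, a ligand of TAM receptors, had -0.66 in HSC, 0.17 in MPP1 and 2.69 in MPP2. It too was low in MPP2, at 6.66, 6.385 and 3.89 CPM in KO, against 0.624, 1.39 and 0.617 CPM in Het. The others were Kcnk5, Pglyrp2, Tgm2 and Nrk. For none of these 8 did the additive effect pass; in single alternatives it did for 5 of them, namely Podxl and Pglyrp2 with the 3 population effects averaged (adjusted p = 0.0476 and 0.046), Nrk with the random block (-1.53, adjusted p = 0.0311), Nrk, Kcnk5 and Plk2 without MPP2, and Kcnk5 with Sham as the control.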

How the data were processed

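RNA was sequenced from sorted marrow cells pooled from several mice, in 18 KO and Het libraries (3 per genotype and population) and 6 Sham libraries, with 18823971 to 53196624 counts each, and tests rest on the variation among these pools rather than among mice. Per the labels, libraries were rRNA-depleted, stranded and paired-end. The authors deposited raw counts per gene for 23364 symbols, with no normalization. The submitters' processing notes name TopHat2 2.0.9, Bowtie 1.0.0, Trimmomatic 0.33, featureCounts, FastQC, R 3.1.2 and edgeR, and the build mm9; the handling of multi-mapping reads is not given in the sources used here. The authors also deposited a normalized signal for the whole series, which was used for 1 alternative with a pseudocount of 1, and 0 columns were left unused. Libraries were joined by gene symbol, since gene order differed in a single file.

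Analysis was done in R 4.3.3 with edgeR 4.0.16, limma 3.58.1 and DESeq2 1.42.0. Low genes were removed with filterByExpr by group (least count 10), leaving 20302, and TMM factors scaled the libraries. The main model, population plus genotype, left 14 residual degrees of freedom and had a common dispersion of 0.463. Quasi-likelihood tests were two-sided, their p-values were adjusted over all 20302 genes by the Benjamini-Hochberg method, and 0.05 was the threshold. A model with 6 group means gave the change in each population, its difference between populations (interaction) and the largest of the 3 p-values of a gene with 1 direction. The random block was fitted with limma-voom, the mean log2 CPM profiles with limma and the summed counts with edgeR. SEs are approximate: the size of the log2 change over the root of its F statistic. The script was tested on simulated data with independent libraries and a dispersion of 0.05, below the 0.463 found here. That simulation therefore cannot show how the calls hold at this spread or among related libraries.

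The comparison, the 29 gene lists and the naming rule were chosen with earlier results of these data known. Named were the 12 largest rises and falls (rule in the text), the 4 list members with the smallest adjusted p where called (otherwise 2 as values), up to 20 genes past the test in each population, the 8 smallest interaction p-values, Mysm1, the sort genes, Rpl22 and Rpl36al; symbols of predicted genes and small RNAs were passed over. Other list members were named after their values were seen. Positions are mm9 with GENCODE, in which 116 of the 118 named symbols were found. Some genes of the lists are counted but not reported by name here.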

Additional observations from a re-analysis of the deposited data

Results flagged for a closer look

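Podxl was the gene whose knockout effect differed between populations by the test of that difference (adjusted p = 0.01672, edgeR quasi-likelihood interaction test over 20302 genes). Its log2 change, KO minus Het, was -0.49 in HSC, -0.21 in MPP1 and 2.62 in MPP2. In MPP2 all 3 KO libraries were above all 3 Het libraries, and the groups overlapped in HSC and MPP1. Of the MPP2 Sham libraries 1, at 52.8 CPM, lay within the KO range of 42.1 to 59.3 CPM, and the other had 11.1 CPM. The call was absent in 11 of the 18 fits that left out a single library.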

How the results depend on the processing

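No named gene that was called changed its direction under any of the alternatives run. The balance of the additive count turned without MPP2 (166 rose, 173 fell), and the median of small ribosomal subunit proteins crossed to 0.03 without HSC. The 930 genes of the additive effect stayed within 1.5 times in 9 alternatives that did not leave out a single library (657 to 1032). The count was 1553 with DESeq2, 1998 with Het and Sham as the control, 594 without HSC KO 1 and HSC Het 2_3, which had the fewest detected genes, 415 without HSC, 39 without MPP1 and 339 without MPP2. It was 279 with genotype and number as a random block (limma-voom, 1113 without the block), 26 with summed counts and 79 with mean log2 CPM. Chosen after seeing the data, the mean log2 CPM fit and the omission of libraries by number gave 120 genes without the 3 KO libraries numbered 1, 2739 without those numbered 2_3 and 297 without the 3 Het libraries numbered 2_3. Leaving out each library in turn gave 448 to 1326 genes for the additive effect, 1 to 2 for the test in each of 3 populations and 0 to 15 for the interaction. The test in each population gave 2 genes with each population's own adjusted p, 177 by the additive effect with no overlap, 10 with DESeq2 and 5 with Het and Sham as the control. The interaction gave 6 without the filter on low counts. Deviations of KO and Het libraries that share a number and a population correlated at -0.167 to 0.448, above 0.1 in 6 of 9 pairs. Their median was 0.251, against -0.090 over the 18 pairs with other numbers. Whether the number pairs KO with Het libraries was not tested. With the replicate block 1879 genes passed the additive effect, 2 the test in each population and 15 the interaction. The cause of these changes was not tested, except that fits of fewer libraries or of 6 profiles have fewer degrees of freedom. Of the named genes, 14 passed in all 40 alternatives: Eda2r, Psrc1, Zmat3, Ccnd1, Ccng1, Bax, Rps27l and Selp rose, and Spire1, Pm20d2, Obsl1, Rpl22l1, Rpl36a and Rpl37a fell. Low counts limit precision for genes such as Cdkn1a, which was at 0 CPM in HSC Het library 2_3.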

Other observations

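Genes that fell and genes that rose differed in length and level. The 234 that fell had a median gene model length of 4671 bases and a median level of 19.7 CPM, the 696 that rose 2521 bases and 75.2 CPM, and all 20302 tested 2738 bases and 7.69 CPM. The median log2 change of the falls was -0.88 in HSC, -0.75 in MPP1 and -0.56 in MPP2, and 49.6% of them ran in that order, against 19.6% of all tested. The rises had medians of 0.46 in HSC, 0.46 in MPP1 and 0.36 in MPP2. Among them 37.2% ran from highest in HSC to lowest in MPP2, against 20.3% of all tested. None of the 930 passed the test of a difference between populations; 7.26% of the falls and 5.75% of the rises were under an unadjusted p of 0.05 in it, against 3.95% of all tested.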
